A study of Mus musculus with 12 samples.

Results

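The nuclear receptors described here are 46 genes of that superfamily, taken from a list of gene symbols and matched to the Ensembl gene IDs of the count files. All 46 were found among 47643 gene IDs, and 24 of them had enough reads to be tested. They were followed through 12 libraries of poly(A) RNA from mouse bone marrow monocytes, which form 6 groups of 2 libraries. The groups are sorted monocytes, cells cultured for 1 day and cells cultured for 2 days, each from Nr4a3 KO mice and from WT mice, all of a C57BL/6 background. Culture was with GM-CSF and IL-4, cytokines that turn monocytes into dendritic cells, and all cultured groups of both genotypes received both. The study asked what NR4A3 does in that differentiation. The labels do not describe the Nr4a3 allele or whether cells of several mice were pooled, and the number of mice behind a library is not given. The labels state 2 independent experiments a group, so p-values measure the spread between these libraries.

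Nuclear receptors are transcription factors that bind DNA through a zinc finger domain, and many of them are switched by small lipid-soluble ligands such as steroids, retinoids, vitamin D, thyroid hormone, fatty acids and oxysterols. Several work as pairs with a retinoid X receptor (RXR), while the NR4A receptors need no known ligand and are controlled mainly by how much of them is made. In monocytes and dendritic cells, members of the superfamily are known for roles in the survival of patrolling monocytes, in lipid handling, in the vitamin D and retinoic acid responses and in the glucocorticoid brake on inflammation.

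Depth ran from 5905266 to 18447405 reads counted in genes per library. Levels are CPM, gene counts scaled to a common library size with TMM adjustment, and paired values are replicates 1 and 2 in that order. Markers checked the labels: a list of 10 monocyte genes summed to 24919 to 55773 CPM in sorted monocytes and 1300 to 7327 CPM at day 2, and a list of 11 dendritic cell genes to 239 to 309 CPM in sorted monocytes and 34462 to 37116 CPM at day 2. Markers of B cells, T and NK cells, basophils and mast cells, and stromal cells each summed to at most 48.8 CPM in any library, those of erythroid cells to at most 178 CPM, of plasmacytoid dendritic cells to 73.2 to 161 CPM and of macrophages to 181 to 771 CPM. A pair of libraries stood apart. WT monocytes replicate 2 held 4090 CPM of neutrophil markers, against 1165 to 1945 CPM in the other monocyte libraries, and 8.28% of its gene reads came from ribosomal protein genes, against 3.70% to 4.60% there. At day 1 the ribosomal share was also higher in replicate 2, at 6.54% in KO and 6.76% in WT cells, against 3.79% and 4.17% in replicate 1. On the first principal component, at 52.9% of the variance, the library labelled KO day 1 replicate 1 had a score of 1.60, against 38.4 to 46.7 for the other day 1 libraries. The deposited files carry dates in their names, which are read here as dates of experiment. By that reading monocytes and day 1 fall in 2 experiments and day 2 in 2 others. In comparisons with day 2 the stage and the experiment therefore cannot be told apart. Xist, transcribed from the inactive X chromosome of female cells, reached 793 CPM in KO and 885 CPM in WT day 2 replicate 1. Elsewhere it had at most 1.01 CPM. Ddx3y, a Y chromosome gene, had 0.167 CPM in KO and 0 CPM in WT day 2 replicate 1. Every other library held 34.4 to 98.1 CPM of it. By these genes, day 2 replicate 1 came from female cells and the other libraries from male cells. Sex and experiment therefore cannot be told apart between the day 2 replicates, and the part of sex in their differences was not tested. In bulk RNA, fewer cells of a type and less RNA per cell cannot be told apart either.

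Nr4a3 (ENSMUSG00000028341.9), the gene named in the KO label, was close to silent in sorted monocytes and became the most abundant nuclear receptor transcript of WT cells at day 2. In KO cells it had 0.928 and 0 CPM in monocytes, 6.58 and 0 CPM in the libraries labelled KO day 1, and 39.0 and 19.3 CPM at day 2. The WT libraries had 0.306 and 0 CPM in monocytes, 16.5 and 10.4 CPM after 1 day, and 1286 and 1357 CPM after 2 days. The genotypes did not overlap at day 1 or at day 2. The KO day 2 libraries held 234 and 236 reads of Nr4a3, against 11194 and 10741 reads in the WT day 2 libraries, and gene counts do not show where in the gene these reads fall. At day 1 the library labelled KO day 1 replicate 1 counted 76 reads and KO day 1 replicate 2 counted 0, which allows up to 0.164 CPM.

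The size of the Nr4a3 difference at day 2 was large in both experiments, but the test across all genes did not call it. The log2 fold change of KO over WT was -5.51 ± 1.36 (SE), with an unadjusted p of 0.00204 and an adjusted p of 0.389 by edgeR's quasi-likelihood test. Within the experiments it was -5.04 in replicate 1 and -6.14 in replicate 2. A paired fit over all 12 libraries did not call the difference either. A fit on the day 2 libraries alone that paired them by experiment rests on a single residual degree of freedom and called 12.8% of 12233 genes. There the value was -5.59 ± 0.37 (edgeR adjusted p = 0.00683). Without both libraries that stood apart it was -5.51 ± 0.75 (edgeR adjusted p = 0.0515).

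**Figure D1:**
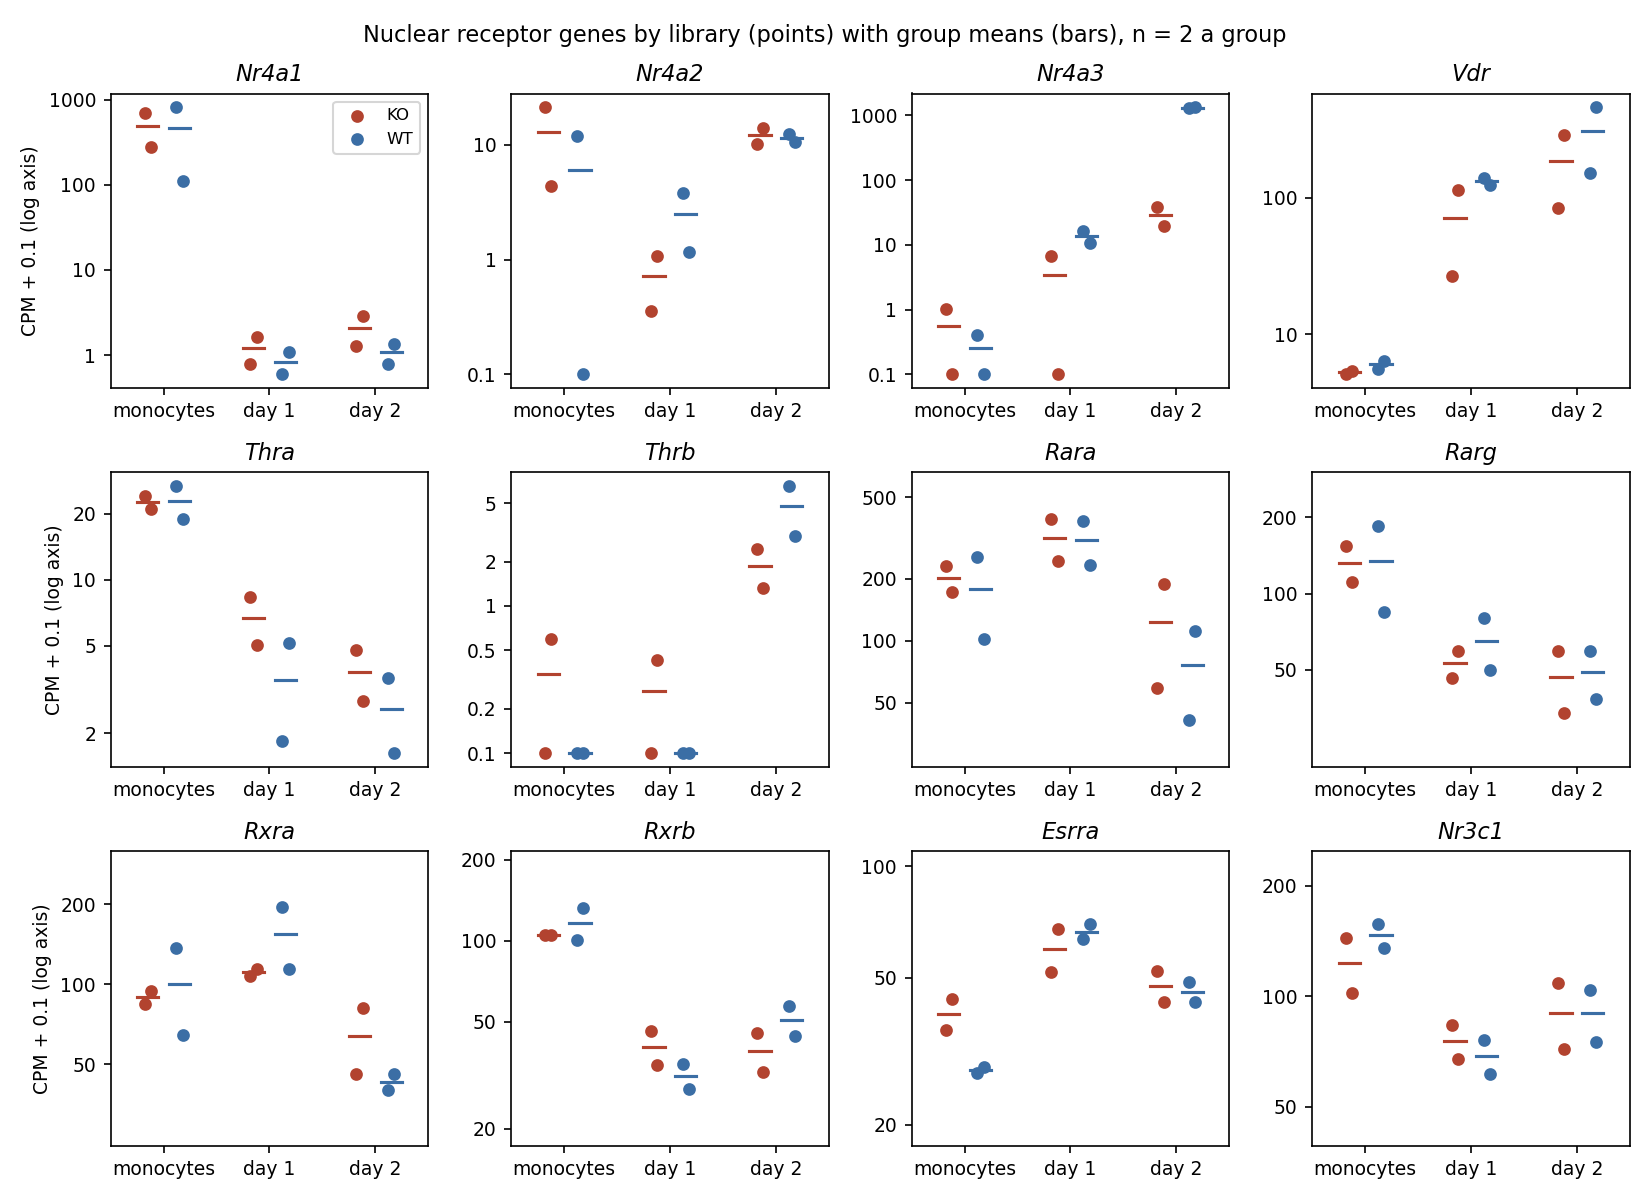
Level of 12 nuclear receptor genes in each library, with CPM + 0.1 on a log axis, the stages (monocytes, day 1, day 2) along the horizontal axis, KO points left of WT points and a bar at the mean of each group. Nr4a1 is high in monocytes only, Nr4a3 stands at 1286 and 1357 CPM in WT cells at day 2, and Vdr is higher in every cultured library than in every monocyte library.

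The promoters of the 3 NR4A genes are shown because Nr4a3 and Nr4a1 had the largest rise and fall of the tested members in WT cells at day 2 and because all 3 share a short motif. NR4A genes are immediate early genes, and the cAMP response element is a binding site of CREB, a factor known to switch them on. Each sequence is the RefSeq window of build GRCm38.p6 from 250 bases before to 50 bases after the listed start, printed 5′ to 3′ on the strand of the gene, with each match of the half-site TGACG, or of its reverse complement CGTCA, in capitals. The Nr4a1 window is chr15:101266596-101266895 on the plus strand, the Nr4a2 window chr2:57123954-57124253 on the minus strand and the Nr4a3 window chr4:48045055-48045354 on the plus strand.
Nr4a1: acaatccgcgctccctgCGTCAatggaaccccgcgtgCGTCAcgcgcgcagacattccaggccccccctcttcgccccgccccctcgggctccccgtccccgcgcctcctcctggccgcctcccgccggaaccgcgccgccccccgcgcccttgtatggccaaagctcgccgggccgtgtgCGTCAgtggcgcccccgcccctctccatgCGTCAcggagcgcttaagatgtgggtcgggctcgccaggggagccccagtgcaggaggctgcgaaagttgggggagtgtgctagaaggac
Nr4a2: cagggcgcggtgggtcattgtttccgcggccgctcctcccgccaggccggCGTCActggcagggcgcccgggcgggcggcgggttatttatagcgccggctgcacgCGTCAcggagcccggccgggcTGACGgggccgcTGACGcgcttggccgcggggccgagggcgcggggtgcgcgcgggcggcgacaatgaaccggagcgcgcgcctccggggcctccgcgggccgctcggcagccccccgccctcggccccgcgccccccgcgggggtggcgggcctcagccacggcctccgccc
Nr4a3: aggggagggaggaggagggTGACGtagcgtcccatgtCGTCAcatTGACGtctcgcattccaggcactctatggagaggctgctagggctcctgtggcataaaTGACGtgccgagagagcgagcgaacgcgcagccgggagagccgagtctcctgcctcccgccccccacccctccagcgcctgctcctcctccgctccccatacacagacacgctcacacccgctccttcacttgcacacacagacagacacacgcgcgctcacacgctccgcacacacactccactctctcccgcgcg
Each of the 3 windows holds 4 matches of the half-site on either strand, a number reached or passed by 0.231% of 32851 promoter windows of the same length. The promoters were shown because they share this motif, 1 of several searched, so that share is a description and not a test. At least 1 match is found in 20.8% of all windows. None of the 3 holds the full palindrome TGACGTCA, found in 1.79% of windows, the NR4A monomer site AAAGGTCA (NBRE), found in 1.51%, or the nuclear receptor half-site AGGTCA, found in 16.3%, all searched on both strands. Their GC content is 72.3% for Nr4a1, 81.7% for Nr4a2 and 64.7% for Nr4a3, and the windows they are set against were not matched for it. A match is a description of the letters and not a site shown to be bound in these cells.

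The 3 NR4A genes followed separate courses in culture. Nr4a1, the receptor NUR77 that patrolling monocytes are known to need, had the highest mean level of the members in sorted monocytes and almost vanished after 1 day. KO cells had 702 and 277 CPM in monocytes, 0.692 and 1.53 CPM in the libraries labelled KO day 1, and 1.17 and 2.78 CPM at day 2. WT cells had 824 and 111 CPM in monocytes, 0.495 and 0.979 CPM at day 1, then 0.690 and 1.26 CPM at day 2. Every cultured library was far below every monocyte library in both genotypes. Relative to monocytes, Nr4a1 fell in KO cells, with a log2 fold change of -8.72 ± 1.09 at day 1 (edgeR adjusted p = 0.000936) and -7.87 ± 1.05 at day 2 (edgeR adjusted p = 0.000843). The WT values were -9.29 ± 1.13 at day 1 (edgeR adjusted p = 0.000611) and -8.90 ± 1.13 at day 2 (edgeR adjusted p = 0.000463). These 4 calls held without any 1 library, while their sizes rested on single ones. In KO cells the day 1 value was -7.93 on dropping replicate 1 of the monocytes and -9.44 on dropping replicate 2 of day 1, and the day 2 value was -7.08 and -8.72 without replicate 1 of the monocytes or replicate 2 of day 2. In WT cells the day 1 value was -7.20 without WT monocytes replicate 1 and -10.14 without WT monocytes replicate 2, and the day 2 value -6.81 and -9.74 without the same libraries. The lowest monocyte value, 111 CPM, belongs to WT monocytes replicate 2, the library rich in neutrophil markers and ribosomal protein reads, and the part of either in that level was not tested.

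Nr4a3 rose with culture in both genotypes, to very different levels. Its monocyte counts were 13 and 0 reads in KO cells and 4 and 0 reads in WT cells, so the size of the rise rests on few reads. Where monocytes replicate 1 was left out, 0 monocyte reads of Nr4a3 remained in that genotype, and the value printed has no defined size. Relative to monocytes, its log2 fold change in KO cells was 5.94 ± 1.53 at day 2 (edgeR adjusted p = 0.0234). That call was lost on dropping KO monocytes replicate 1 (11.38, edgeR adjusted p = 0.0635), KO monocytes replicate 2 (4.95, 0.163) or KO day 2 replicate 1 (0.0733). In WT cells the log2 fold change over monocytes was 6.19 ± 1.75 after 1 day (edgeR adjusted p = 0.0298) and 12.81 ± 1.97 after 2 days (edgeR adjusted p = 0.00137). Between day 2 and day 1 it was 6.62 ± 1.43 (edgeR adjusted p = 0.0212). The WT day 2 call over monocytes held without any 1 library, at 16.89 without WT monocytes replicate 1 and 12.004 without WT monocytes replicate 2. The WT day 1 call did not survive the loss of any of its own 4 libraries. Dropping WT monocytes replicate 1 gave 10.28 with an adjusted p of 0.0666, and dropping each of the other 3 gave adjusted p between 0.0700 and 0.111 (edgeR), with a value of 5.38 without WT monocytes replicate 2. The WT call of day 2 over day 1 was likewise lost without any 1 of its own 4 libraries (edgeR adjusted p between 0.0524 and 0.170).

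Nr4a2, the receptor NURR1, stood below 4 CPM in every day 1 library and above 9 CPM in every day 2 library, with no call in any comparison. The KO libraries held 21.3 and 4.25 CPM in monocytes, 0.260 and 0.984 CPM in the libraries labelled KO day 1, and 10.0 and 14.1 CPM at day 2. The WT libraries held 11.9 and 0 CPM in monocytes, 3.71 and 1.06 CPM at day 1, then 12.3 and 10.5 CPM at day 2. The monocyte replicates were as far apart as the stages in WT cells. In KO cells its log2 fold change of day 2 over day 1 was 4.19 ± 1.55 (edgeR adjusted p = 0.190), the lowest adjusted p of any member there. Together the 3 NR4A genes made up 39.8% and 22.7% of the summed CPM of all 46 members in KO monocytes and 40.7% and 12.3% in WT monocytes. At day 1 that share was 0.275% to 1.69% in the 4 libraries. At day 2 it was 6.04% and 3.42% in KO cells and 60.8% and 54.9% in WT cells, so the genotypes did not overlap.

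Of the other 43 members, 21 were tested, and the classes of the superfamily were detected unevenly. All 3 NR4A genes and 7 of 9 retinoid, vitamin D and thyroid hormone receptors passed the filter on low counts, as did 4 of 8 fatty acid and sterol sensors. So did 3 of 4 clock receptors, 3 of 7 testicular and COUP-type orphan receptors, 2 of 5 steroid receptors, 1 of 3 estrogen-related receptors and 1 of the 5 receptors related to HNF4, SF-1 and GCNF. Neither of the 2 receptors without a DNA-binding domain passed. A total of 15 members had 0 reads in all 12 libraries, which allows up to 0.0215 CPM over the libraries together and 0.164 to 0.500 CPM in single libraries. They are Pgr, Esr2, Esrrb, Esrrg, Ppara, Nr1i2, Rorb, Nr2f1, Nr2f2, Nr2e1, Nr2e3, Hnf4a, Hnf4g, Nr5a2 and Nr0b1, among them the progesterone receptor, the liver receptor HNF4 alpha and PPAR alpha, the fatty acid sensor of liver. The filter passes a gene that is high in 1 group only, so the 24 are not a sample of all 46.

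Another 7 members had a few reads and were not tested. Nr5a1 and Nr3c2, the mineralocorticoid receptor, had 1 read each, Nr1h4, the bile acid receptor, had 2 reads, and Nr0b2 had 6 reads. Nr1i3, a xenobiotic sensor of liver, had 15 reads. Rarb, a retinoic acid receptor that is itself a well-known target of retinoic acid, had 24 reads, of which 12 were in KO day 2 replicate 2 and 6 in WT day 2 replicate 1. All 15 reads of Rxrg, the RXR of muscle and brain, came from WT monocytes replicate 2, the library that stood apart (1.58 CPM). No statement on a change is possible for these 7 genes at this depth.

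**Figure D2:**
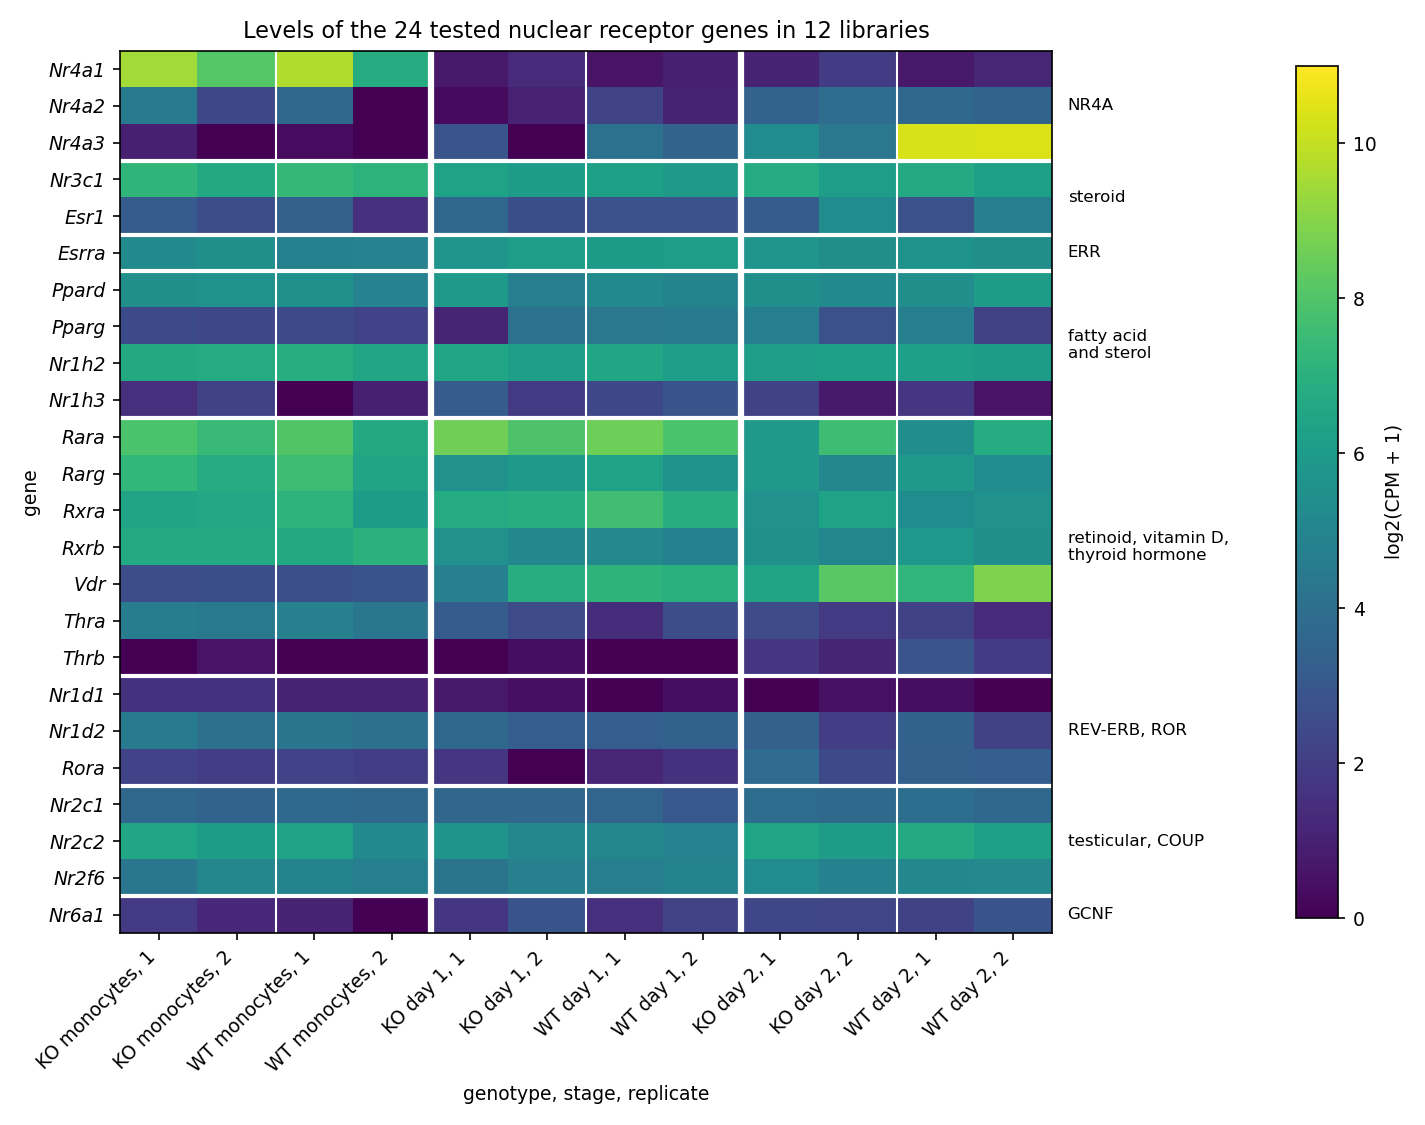
Heat map of the 24 tested nuclear receptors, with log2(CPM + 1) as colour, 1 row per gene grouped by class and 1 column per library, KO left of WT within each stage. Nr4a1 is bright in the monocyte columns alone, Nr4a3 in the WT day 2 columns, and the rows of Rara, Nr1h2, Rxra and Nr3c1 are bright throughout.

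Per kilobase of exon, the order of the members turned over with each day. In KO monocytes Nr4a1 led with 139.5 ± 85.6 CPM per kilobase (SD, n = 2), ahead of Rara with 46.4 ± 9.65, Nr1h2 with 31.6 ± 1.49 and Rarg with 31.0 ± 7.13. Nr4a1, Rara and Nr1h2 did not overlap there, while Nr1h2 and Rarg did. In WT monocytes Nr4a1 averaged 133 ± 144, ahead of Rara with 41.0 ± 25.1, and the replicates of those genes overlapped. At day 1 Rara, a retinoic acid receptor, led in both genotypes with no overlap with the next gene, at 72.8 ± 24.1 in the libraries labelled KO day 1 and 70.9 ± 24.1 in WT cells. Next came Nr1h2 with 23.7 ± 4.41 in the libraries labelled KO day 1 and Rxra with 28.2 ± 10.4 in WT cells. At day 2 KO cells had no single leader, since Vdr with 32.9 ± 25.5, Rara with 28.4 ± 21.0 and Nr1h2 with 21.6 ± 1.54 overlapped. In WT cells at day 2 Nr4a3 led with 221 ± 8.36, with no overlap with Vdr at 54.3 ± 38.8, which in turn did not overlap with Nr1h2 at 20.9 ± 1.06.

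Among the receptors for retinoids, vitamin D and thyroid hormone, the vitamin D receptor gene Vdr rose strongly with culture in both genotypes. It encodes the receptor for active vitamin D, which in dendritic cells is known for a tolerogenic program. In KO cells Vdr had 5.0 and 5.31 CPM in monocytes, 26.6 and 114 CPM in the libraries labelled KO day 1, and 83.8 and 287 CPM at day 2. Vdr in WT cells stood at 5.51 and 6.32 CPM in monocytes, 139 and 123 CPM at day 1, then 151 and 462 CPM at day 2. Every cultured library lay above every monocyte library, and replicate 2 was the higher one at day 2 in both genotypes. In KO cells the log2 fold change over monocytes was 3.77 ± 0.80 at day 1 (edgeR adjusted p = 0.0121) and 5.17 ± 0.85 at day 2 (adjusted p = 0.00261). In WT cells it was 4.47 ± 0.83 at day 1 (edgeR adjusted p = 0.00440) and 5.69 ± 0.87 at day 2 (adjusted p = 0.00135). The calls at WT day 1, WT day 2 and KO day 2 held without any 1 library. The KO day 2 value was 5.82 without KO day 2 replicate 1 and 4.01 without KO day 2 replicate 2, and the WT day 2 value 4.67 without WT day 2 replicate 2. At KO day 1 the value was 4.42 without the library labelled KO day 1 replicate 1. The KO day 1 call was lost without KO monocytes replicate 1 or replicate 2 (adjusted p = 0.101 each) and without KO day 1 replicate 2 (2.37, adjusted p = 0.0953), and without both libraries that stood apart the value was 4.39 ± 0.87 (adjusted p = 0.0161).

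The thyroid hormone receptor genes moved in opposite directions. Thra, the form of thyroid hormone receptor most tissues carry, had 24.1 and 20.9 CPM in monocytes, 8.22 and 4.92 CPM at day 1, then 4.67 and 2.70 CPM at day 2 in KO cells. In WT cells Thra had 26.7 and 18.8 CPM in monocytes, 1.73 and 5.06 CPM at day 1, then 3.45 and 1.52 CPM at day 2. All cultured libraries lay below all monocyte libraries. Thra fell by 2.63 ± 0.60 on the log2 scale in KO cells at day 2 (edgeR adjusted p = 0.0127), a call lost without KO monocytes replicate 1, KO monocytes replicate 2 or KO day 2 replicate 2 (adjusted p between 0.0510 and 0.108). Its WT log2 fold change of -2.74 ± 0.59 at day 1 (edgeR adjusted p = 0.00944) was lost without WT day 1 replicate 1 (0.0657) and stood at -3.70 without WT day 1 replicate 2. The WT value of -3.18 ± 0.61 at day 2 (edgeR adjusted p = 0.00458) held without any 1 library and was -3.92 without WT day 2 replicate 1. In the libraries labelled KO day 1 the value was -1.78 (edgeR adjusted p = 0.0609), and it was called with the replicate block.

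Thrb, the other thyroid hormone receptor gene, was nearly absent before day 2. In KO cells it had 0 and 0.496 CPM in monocytes, 0 and 0.328 CPM in the libraries labelled KO day 1, and 2.33 and 1.23 CPM at day 2. WT cells had 0 reads in both monocyte and both day 1 libraries, and 6.44 and 2.91 CPM at day 2. The WT day 2 level was at least 35.1-fold higher than in WT monocytes, a bound set at 3 reads over the monocyte group (edgeR adjusted p = 0.0358). These are few reads, 56 and 23 in WT cells and 14 and 15 in KO cells at day 2. The WT call was lost without any 1 of 6 libraries, namely both KO day 2, both WT monocyte and both WT day 2 libraries (adjusted p between 0.0545 and 0.131), and without both libraries that stood apart (adjusted p = 0.0602).

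The retinoid X receptors, the partners of many other members, followed different courses, and Rxrb fell at both days. Rxrb had 105 and 105 CPM in monocytes, 46.2 and 34.2 CPM at day 1, then 45.3 and 32.4 CPM at day 2 in KO cells. In WT cells Rxrb had 100.2 and 132 CPM in monocytes, 34.7 and 27.9 CPM at day 1, then 56.9 and 44.0 CPM at day 2. All cultured libraries lay below all monocyte libraries, in both genotypes. Its log2 fold change over monocytes in KO cells was -1.39 ± 0.29 at day 1 (edgeR adjusted p = 0.0119) and -1.44 ± 0.29 at day 2 (edgeR adjusted p = 0.00769). The WT values were -1.89 ± 0.30 at day 1 (edgeR adjusted p = 0.00201) and -1.20 ± 0.29 at day 2 (edgeR adjusted p = 0.0146). The WT day 1 call held without any 1 library. The KO day 1 call was lost without KO monocytes replicate 1 or 2 or KO day 1 replicate 2 (adjusted p between 0.0630 and 0.108), the KO day 2 call without KO day 2 replicate 2 (0.0882), and the WT day 2 call without WT monocytes replicate 2 (0.0564) or WT day 2 replicate 2 (0.135).

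Rxra instead had its highest mean at day 1 in both genotypes. In KO cells Rxra had 84.3 and 94.0 CPM in monocytes, 107 and 114 CPM in the libraries labelled KO day 1, and 45.7 and 81.6 CPM at day 2. Rxra in WT cells stood at 136 and 64.5 CPM in monocytes, 194 and 114 CPM at day 1, then 40.0 and 45.9 CPM at day 2. Day 2 lay below day 1 without overlap in both genotypes, and the test called the WT difference. There Rxra fell by 1.84 ± 0.41 at day 2 relative to day 1 (edgeR adjusted p = 0.0243), a call lost without any 1 of those 4 libraries (adjusted p between 0.0567 and 0.168).

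Of the retinoic acid receptors, Rarg, which is best known from skin, fell and Rara, the main form of blood cells, did not pass the test. Rarg stood at 153 and 110.5 CPM in monocytes, 46.4 and 59.4 CPM in the libraries labelled KO day 1, and 59.3 and 33.8 CPM at day 2 in KO cells. WT cells had 184 and 84.1 CPM in monocytes, 79.8 and 49.7 CPM at day 1, then 59.3 and 38.4 CPM at day 2. All cultured values lay below the monocyte values of the same genotype. At day 2 Rarg fell by 1.51 ± 0.45 in KO cells (edgeR adjusted p = 0.0409) and by 1.46 ± 0.44 in WT cells (adjusted p = 0.0389) relative to monocytes. The KO call was lost without any 1 of its 4 libraries (edgeR adjusted p between 0.0602 and 0.258). The WT call was lost without either KO monocyte library, WT monocytes replicate 1 (-0.76, adjusted p = 0.193) or either WT day 2 library (adjusted p between 0.0550 and 0.230 over these 5).

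Rara had its highest mean at day 1 and differed between the day 2 experiments. KO cells held 232 and 173 CPM in monocytes, 392 and 243 CPM in the libraries labelled KO day 1, and 59.0 and 189 CPM at day 2. WT cells held 257 and 102 CPM in monocytes, 384 and 235 CPM at day 1, then 41.0 and 112 CPM at day 2. At day 2 replicate 2 exceeded replicate 1 by 1.56 ± 0.26 on the log2 scale over both genotypes (edgeR adjusted p = 0.0244), where 0.905% of all genes were called. That difference between experiments is a description chosen after the values were seen, and Rara is the only member it called. Between the 2 experiments of monocytes and day 1, where 2.07% of all genes were called, 0 members were, and Rara had the lowest adjusted p (-0.79 ± 0.18, edgeR adjusted p = 0.0512). With the replicate block, which takes up such differences, Rara fell at day 2 relative to day 1 in KO cells (-1.55 ± 0.26, edgeR adjusted p = 0.00781) and was also called in WT cells (-2.15).

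**Figure D3:**
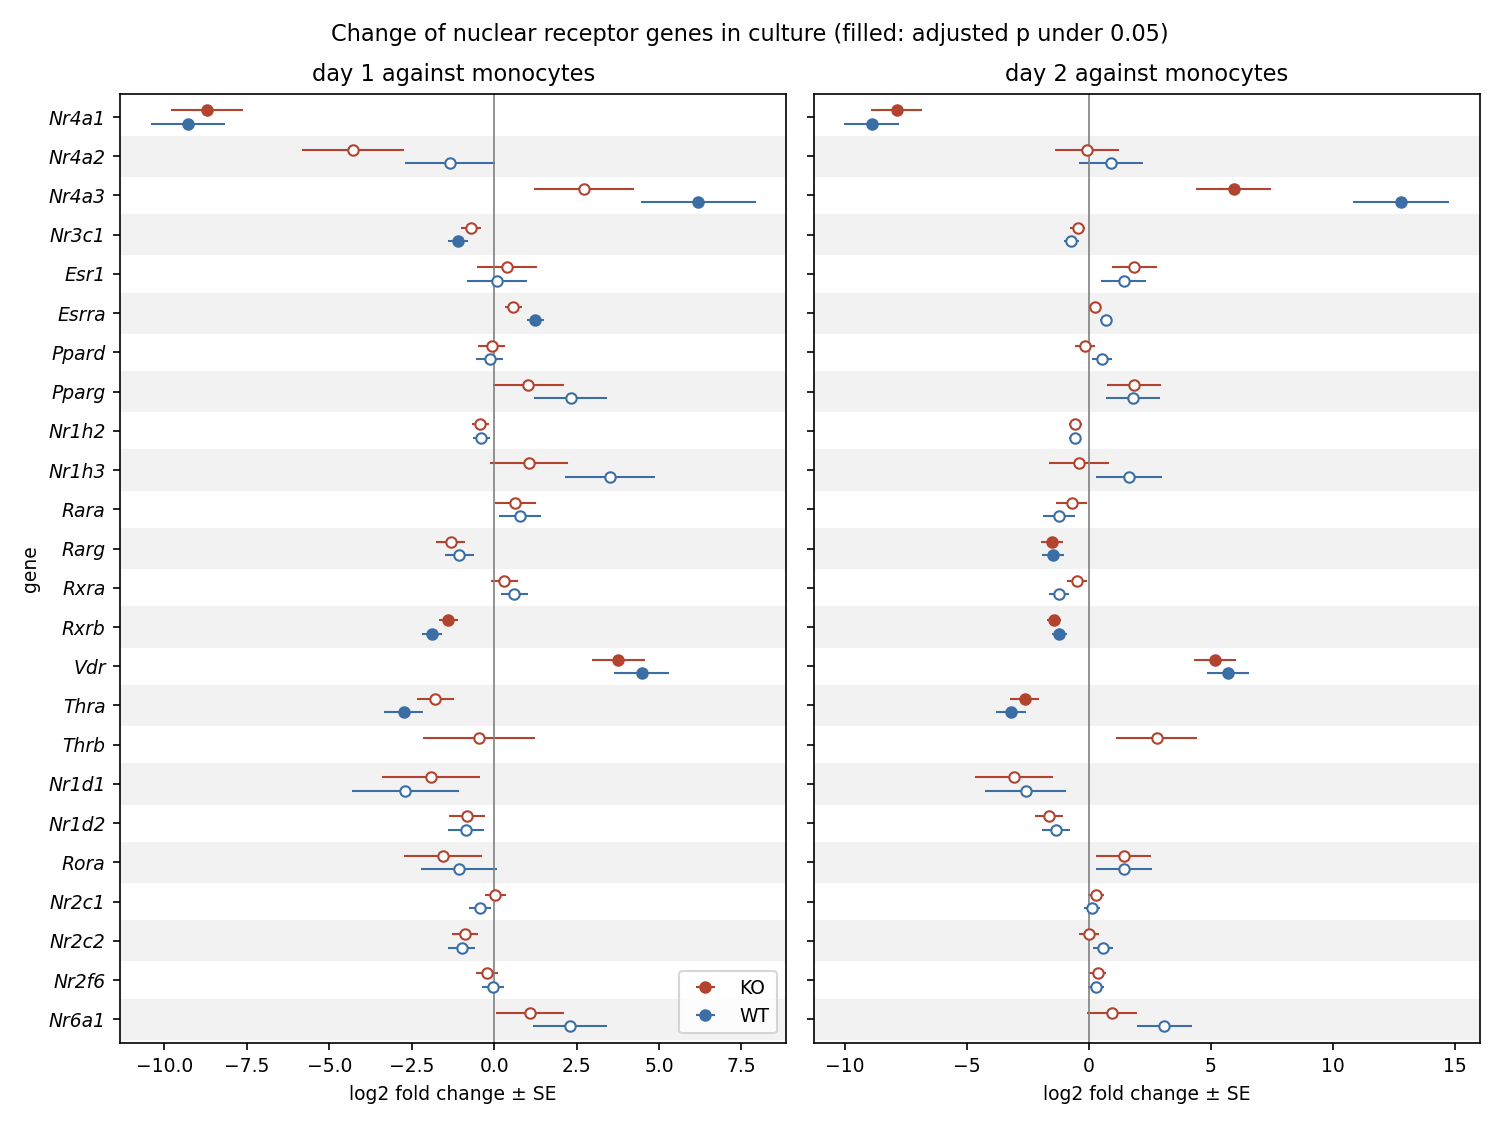
Log2 fold change over monocytes with its standard error for the tested members at day 1 and at day 2, KO above WT for each gene and filled where the adjusted p was under 0.05. Nr4a1, Rxrb, Rarg and Thra lie left of 0 and Vdr and Nr4a3 right of it at day 2 in both genotypes, and Thrb in WT cells is left out because WT monocytes had 0 reads.

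The fatty acid and sterol sensors showed no called change in any comparison. Nr1h2, which encodes the oxysterol receptor LXR beta, stood between 67.5 and 116 CPM in all 12 libraries. Nr1h3, which encodes LXR alpha and is typical of tissue macrophages, stood between 0 and 8.13 CPM. Ppard, the broadly expressed fatty acid receptor, ranged from 25.6 to 64.9 CPM. Pparg, which IL-4 is known to induce in macrophages and dendritic cells, had 4.50 and 4.11 CPM in monocytes, 1.21 and 16.3 CPM in the libraries labelled KO day 1, and 26.2 and 5.56 CPM at day 2 in KO cells. In WT cells Pparg had 4.52 and 3.69 CPM in monocytes, 19.3 and 21.9 CPM at day 1, then 25.6 and 3.54 CPM at day 2. At day 2 replicate 1 was the higher library in both genotypes, the reverse of Vdr and Rara, and replicates differed more than genotypes. The WT day 1 libraries were both above the WT monocyte libraries, but this difference did not pass the test.

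Of the steroid receptors, Nr3c1, the glucocorticoid receptor gene, was abundant throughout and fell at day 1 in WT cells. KO libraries held 144 and 102 CPM in monocytes, 83.2 and 67.2 CPM in the libraries labelled KO day 1, and 108 and 71.4 CPM at day 2. WT libraries held 157 and 135 CPM in monocytes, 75.6 and 61.4 CPM at day 1, then 104 and 75.1 CPM at day 2. Nr3c1 fell by 1.10 ± 0.31 in WT cells at day 1 (edgeR adjusted p = 0.0301), a call lost on dropping WT monocytes replicate 1 or either WT day 1 library (adjusted p between 0.0652 and 0.174). Esr1, the estrogen receptor alpha gene, had 8.16 and 39.7 CPM in KO cells and 5.63 and 24.8 CPM in WT cells at day 2, with replicate 2 higher in both. In the other 8 libraries it stood between 1.90 and 12.2 CPM, and the fit over all libraries without a block called it in no comparison.

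Esrra, which encodes the estrogen-related receptor ERR alpha, a driver of mitochondrial genes, rose at day 1 in WT cells. KO cells had 35.9 and 43.6 CPM in monocytes, 51.7 and 67.7 CPM in the libraries labelled KO day 1, and 52.0 and 42.9 CPM at day 2. WT cells had 27.5 and 28.6 CPM in monocytes, 63.3 and 69.6 CPM at day 1, then 48.5 and 42.8 CPM at day 2. Esrra rose by 1.25 ± 0.26 in WT cells at day 1 (edgeR adjusted p = 0.00755), and that call held without any 1 library. At WT day 2 the value was 0.70 (edgeR adjusted p = 0.0699).

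The clock-linked receptors had no call. Nr1d2, the repressor REV-ERB beta, ranged from 15.5 to 21.6 CPM in monocytes, 8.75 to 12 CPM at day 1 and 3.02 to 9.54 CPM at day 2, so that both culture days lay below the monocytes. With the replicate block it was called at day 2 in KO cells (-1.78) and in WT cells (-1.52). Nr1d1, the repressor REV-ERB alpha, had at most 2.05 CPM in any library, and it shares its locus with Thra on the opposite strand. Rora, which activates the clock genes that REV-ERB represses, ranged from 4.58 to 13.5 CPM at day 2 and from 0 to 3.68 CPM before.

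Among the orphan receptors, Nr2c2, the testicular receptor TR4, was lowest at day 1 and rose again at day 2 in WT cells. In KO cells Nr2c2 had 89.0 and 67.0 CPM in monocytes, 51.3 and 33.2 CPM in the libraries labelled KO day 1, and 90.8 and 65.1 CPM at day 2. In WT cells Nr2c2 had 83.5 and 36 CPM in monocytes, 32.1 and 28.4 CPM at day 1, then 105 and 74.3 CPM at day 2. Nr2c2 rose by 1.57 ± 0.41 in WT cells at day 2 relative to day 1 (edgeR adjusted p = 0.0429). Of the 26 calls of members this one was lost most often, without any 1 of 8 libraries, namely both KO monocyte, both KO day 2, both WT day 1 and both WT day 2 libraries (adjusted p between 0.0570 and 0.225). Its relative Nr2c1, TR2, stood between 7.09 and 14.6 CPM in all libraries, and Nr2f6, a COUP-type repressor, between 17.6 and 38.8 CPM. Nr6a1, the germ cell nuclear factor, stood between 0 and 6.32 CPM, and none of these 3 was called.

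Counted over the 24 tested members, culture changed several nuclear receptors in each genotype, at shares of 12.5% to 29.2% over monocytes that lie near those of all genes. In KO cells 1 member rose (7.7% of all 14034 genes) and 2 fell (6.14%) at day 1 relative to monocytes, where 13.8% of all genes were called in either direction, and 2 rose (9.95%) and 4 fell (7.57%) at day 2, where 17.5% were called. In WT cells 3 rose (11.4%) and 4 fell (10.1%) at day 1, where 21.5% of all genes were called, and 3 rose (12.7%) and 4 fell (9.89%) at day 2, where 22.6% were called. Between day 2 and day 1 KO cells had 0 calls (2.05% of all genes), 3 members at an unadjusted p under 0.05 (2476 of 14034 genes) and 1 by DESeq2 (1057 of 14034 genes). WT cells had 2 higher (4.67%) and 1 lower (3.51%) there, where 8.19% of all genes were called. The median log2 fold change of the tested members over monocytes was -0.32 in KO cells and -0.26 in WT cells at day 1, against 0.11 and 0.06 for all genes. At day 2 it was -0.13 in KO cells and 0.42 in WT cells, against 0.08 and 0.09 for all genes.

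With the replicate block, in which experiments differ by a constant, more members and more genes were called. It called 7 members at day 1 (21.3% of genes) and 9 at day 2 (25.0%) in KO cells, and 11 at day 1 (28.4%) and 12 at day 2 (30.5%) in WT cells. Between day 2 and day 1 it called 1 in KO cells (7.5%) and 5 in WT cells (16.3%). A paired fit on monocytes and day 1 alone called 5 members in KO cells (16.1%) and 11 in WT cells (28.3%). Without both libraries that stood apart, 6 members were called at day 1 (22.2%) and 6 at day 2 (25.8%) in KO cells, and 10 at day 1 (20.1%) and 7 at day 2 (17.9%) in WT cells. In these fits the lone library of a group is assumed to vary like the other groups. Between day 2 and day 1 there were 2 in KO cells (6.65%) and 5 in WT cells (17.8%). Of the 26 calls of members, 25 were made again without them, the exception being Thrb in WT cells at day 2.

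KO and WT cells were then compared at each stage, which asks whether losing Nr4a3 alters the other receptors. No member was called in monocytes (0% of all genes), at day 1 (0%) or at day 2, where 14 genes, all lower in KO cells, made up 0.0998% of those tested. At an unadjusted p under 0.05, 0 members stood in monocytes, 0 at day 1 and 1, Nr4a3, at day 2, against 557, 252 and 444 of 14034 genes. DESeq2 called 0 members at each stage, and 3, 3 and 90 of 14034 genes in the same order. No member other than Nr4a3 had an adjusted p below 0.998 at any stage (edgeR). Since the test did not call Nr4a3 itself at day 2, the lack of calls does not show that the other receptors were unaffected. The differences between the culture effects of KO and WT cells also called 0 members at day 1 over monocytes (0% of all genes), 0 at day 2 over monocytes (0.0285%) and 0 at day 2 over day 1 (0%). There were 0, 1 and 0 members at an unadjusted p under 0.05, against 400, 478 and 340 of 14034 genes. DESeq2 called 0 members for these differences, and 2, 37 and 26 of 14034 genes in the same order. For Nr4a3 the culture effect at day 2 over monocytes, KO minus WT, was -6.87 ± 2.48 on the log2 scale (unadjusted p = 0.0189, adjusted p = 1, edgeR).

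At day 2, of the 22 members other than Nr4a3 with reads in all 4 libraries, 13 had the same sign of KO over WT in both experiments. Of these, 8 were higher and 5 lower in KO cells. The share of all genes with the same sign is not given, so this count is not read as an effect of genotype. The 4 described next are those a paired fit on day 2 alone called. Such a fit favours genes whose differences agree between experiments, so their agreement adds no support. Vdr had a log2 difference of KO over WT of -0.85 in experiment 1 and -0.68 in experiment 2, and Thrb of -1.46 and -1.25. Rara had 0.52 and 0.75, and Esr1 0.54 and 0.68. In the fit over all libraries, which does not pair the experiments, these values were -0.72 ± 0.71 for Vdr, -1.40 ± 1.53 for Thrb, 0.70 ± 0.64 for Rara and 0.67 ± 0.89 for Esr1, with no call. A paired fit on the day 2 libraries alone called 5 members, where 12.8% of 12233 genes were called, and rests on a single residual degree of freedom. They were Nr4a3, Vdr (-0.76 ± 0.11, edgeR adjusted p = 0.00304), Rara (0.65 ± 0.11, adjusted p = 0.00759), Esr1 (0.63 ± 0.16, adjusted p = 0.0402) and Thrb (-1.35 ± 0.35, adjusted p = 0.0378). A paired fit over all 12 libraries called 0 members (0.249% of genes).

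**Figure D4:**
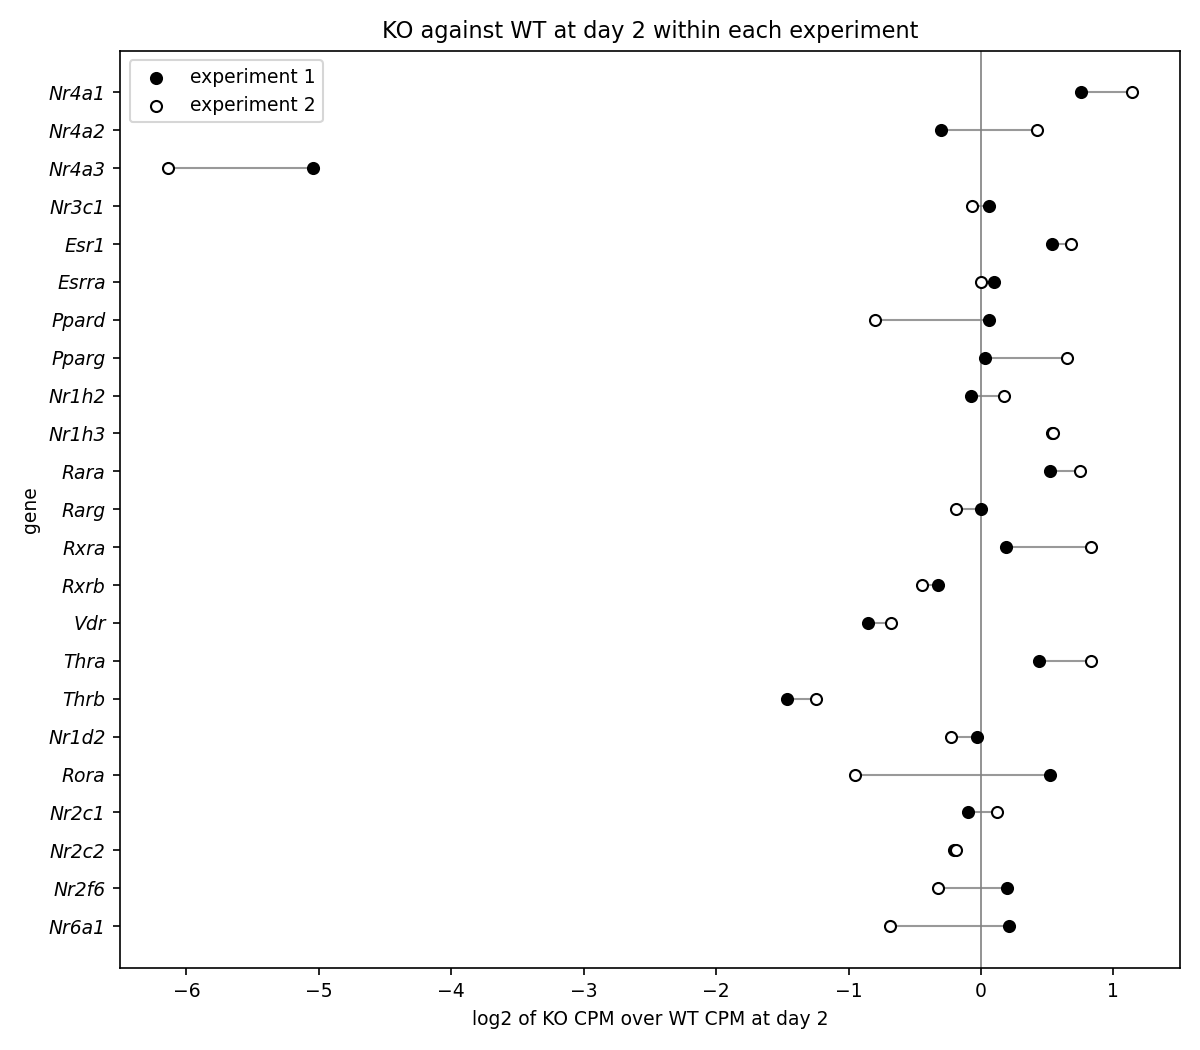
Log2 ratio of KO to WT CPM at day 2 within each of the 2 day 2 experiments, for the tested members with reads in all 4 libraries. Nr4a3 lies at -5.04 and -6.14, far from the other members, and 13 of the other 22 have the same sign in both experiments. Among them are Vdr, Thrb, Rara and Esr1, which a paired fit on these same libraries picked out.

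Genes of the pathways around the receptors were followed in 9 lists of 138 genes, holding coregulators, chaperones, ligand enzymes and targets. The lists overlap, with 6 genes in more than 1 of them, 1 gene (Rarb) also a member and 4 also cell markers. The oxysterol receptor targets (LXR targets) had the largest share of called genes of these lists at day 2, while neither LXR gene was called. Of 14 tested, 8 were higher and 2 lower at day 2 relative to monocytes in KO cells, and 8 higher and 2 lower in WT cells, where 9.95% and 7.57% of all genes were called higher and lower in KO cells and 12.7% and 9.89% in WT cells. The list's median log2 fold change was 2.05 in KO cells and 2.27 in WT cells. All 10 genes called were called in the same direction in both genotypes. The 8 higher ones were Scd1, Lpl, Abcg1, Scd2, Arl4c, Fasn, Mertk and Abca1, which act in fatty acid synthesis, triglyceride breakdown, cholesterol export and uptake of dead cells, and the lower ones were Apoe and Smpdl3a. Of the 10 calls, 3 in KO cells (Lpl, Scd1 and Smpdl3a) and 7 in WT cells (all but Abca1, Fasn and Smpdl3a) held without any 1 library. The KO calls of Fasn and Mertk were lost without either KO monocyte library or KO day 2 replicate 2, and of Mertk also without KO day 2 replicate 1. Those of Arl4c and Scd2 were lost without KO monocytes replicate 2, of Abcg1 without either KO monocyte library and of Apoe without KO day 2 replicate 2. Abca1 was lost without any 1 of 6 libraries in each genotype, namely both WT day 1 libraries, both KO monocyte libraries and, in KO cells, both KO day 2 libraries, or, in WT cells, WT monocytes replicate 2 and WT day 2 replicate 1. In WT cells Fasn was lost without WT monocytes replicate 2 and Smpdl3a without WT day 2 replicate 2. The adjusted p of lost calls ran from 0.0556 to 0.226 in KO cells and 0.0533 to 0.161 in WT cells (edgeR). Macrophage markers, of which Mertk is one, were called higher for 5 of 8 in KO cells and 4 of 8 in WT cells at day 2, with medians of 3.05 and 2.54. Their summed level was 268 and 266 CPM in KO monocytes and 444 and 291 CPM at KO day 2. In WT cells it was 246 and 377 CPM in monocytes and 309 and 181 CPM at day 2. The part of these markers in the LXR target list was not tested.

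Scd1, which makes monounsaturated fatty acids, was the one list gene that the genotype comparison at day 2 called. It had 22.3 and 30.5 CPM in KO cells and 218 and 228 CPM in WT cells at day 2, a log2 fold change of -3.07 ± 0.35 (edgeR adjusted p = 0.0249). This call was lost without any 1 of 6 libraries, namely both KO monocyte, both KO day 2 and both WT day 2 libraries (adjusted p between 0.0653 and 0.223), and its groups did not overlap. Relative to monocytes Scd1 rose in KO cells by 4.94 ± 0.41 (edgeR adjusted p = 9.05e-05) and in WT cells was at least 1676-fold higher, since both WT monocyte libraries had 0 reads. Lpl, lipoprotein lipase, rose by 4.58 ± 0.68 in KO cells (edgeR adjusted p = 0.00145) and 4.31 ± 0.67 in WT cells (adjusted p = 0.00150).

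Of the genes that make or clear receptor ligands, 4 of 13 tested were higher and 2 lower at day 2 in KO cells and 5 higher and 2 lower in WT cells, with medians of 0.98 and 1.05. The counts of this list and of those that follow stand beside the same shares of all genes at day 2, 9.95% higher and 7.57% lower in KO cells and 12.7% and 9.89% in WT cells. Dhrs9, a retinol dehydrogenase, rose by 8.79 ± 1.33 in KO cells (edgeR adjusted p = 0.00160) and 7.99 ± 1.31 in WT cells (adjusted p = 0.00191). Both calls held without any 1 library, but the size did not. The KO value was 9.51 without KO day 2 replicate 1 and 7.37 without KO day 2 replicate 2, and the WT value was 6.87 without WT monocytes replicate 1 and 13.64 without WT monocytes replicate 2. Aldh1a2, the enzyme that makes retinoic acid in dendritic cells, had 15.3 and 0.654 CPM in KO cells and 2375 and 1359 CPM in WT cells at day 2. The genotypes were far apart, with a log2 fold change of -7.94 ± 1.19 that did not pass the test (edgeR adjusted p = 0.0545), passed with the replicate block (0.0454) and passed by DESeq2 (2.1e-06). It did not pass in the paired fit on day 2 alone (0.160), in the fit on the compared groups (0.408) or without both libraries that stood apart (0.143). Without KO day 2 replicate 1 the value was -11.43 and without KO day 2 replicate 2 it was -6.94, and over all single libraries left out the edgeR adjusted p ran from 0.00234 to 0.147. Hsd11b1, which reactivates glucocorticoid, fell by 5.36 ± 1.02 in WT cells (edgeR adjusted p = 0.00440). Hsd11b1 was also called lower in KO cells, a call lost without KO monocytes replicate 2 or either KO day 2 library.

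Of 15 tested glucocorticoid receptor targets, 4 were higher and 3 lower at day 2 in KO cells and 5 higher and 3 lower in WT cells. Txnip, a thioredoxin inhibitor, fell by 1.90 ± 0.27 in WT cells (edgeR adjusted p = 0.000942), and Errfi1, a brake on EGF receptor signalling, rose by 2.48 ± 0.44 (adjusted p = 0.00303). KO cells had calls in the same directions for both genes. Both KO calls were lost without KO monocytes replicate 2, and that of Txnip also without either KO day 2 library. Of 13 tested PPAR targets, 2 were higher and 1 lower in KO cells and 3 higher and 3 lower in WT cells. The scavenger receptor gene Cd36 rose by 7.23 ± 1.53 in WT cells (edgeR adjusted p = 0.00753). Cd36 was also called higher in KO cells, a call lost without KO monocytes replicate 1. Of 9 tested RAR and VDR targets, 1 was higher and 3 lower in KO cells and 1 higher and 2 lower in WT cells. There Tgm2, a transglutaminase, rose by 4.60 ± 0.77 in KO cells (edgeR adjusted p = 0.00292) and 4.26 ± 0.77 in WT cells (adjusted p = 0.00329). Its KO value was 3.97 on dropping replicate 1 and 5.67 on dropping replicate 2 of the KO monocytes, and 3.73 on dropping KO day 2 replicate 2. Its WT value was 3.498 without WT day 2 replicate 2. Itgb7, an integrin subunit, fell by 4.24 ± 0.71 in KO cells (adjusted p = 0.00279) and 4.79 ± 0.72 in WT cells (adjusted p = 0.00127).

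Of 13 tested clock genes, 2 were higher and 1 lower at day 2 in KO cells and 3 higher and 1 lower in WT cells. Bhlhe40, a repressor that responds to many stimuli besides the clock, rose by 4.59 ± 0.35 in KO cells (edgeR adjusted p = 3.4e-05) and 6.29 ± 0.38 in WT cells (adjusted p = 1.56e-05). Of 19 tested coactivators 1 was higher and 1 lower in KO cells and 3 were higher and 0 lower in WT cells. Of 15 corepressor genes 0 were higher and 2 lower in KO cells and 1 higher and 3 lower in WT cells, and Sap30, a subunit of the SIN3 complex, fell by 2.09 ± 0.33 in KO cells (edgeR adjusted p = 0.00187) and 2.15 ± 0.33 in WT cells (adjusted p = 0.00131). Of 12 receptor chaperones 0 were higher and 2 lower in KO cells and 1 higher and 1 lower in WT cells. Cell markers moved between the same stages. Of 11 dendritic cell markers 10 were higher in each genotype, and of 10 monocyte markers 5 were lower in KO cells and 6 in WT cells. Of 11 neutrophil markers 1 was higher and 3 lower in KO cells (median -1.21) and 1 higher and 4 lower in WT cells (median -2.29). The part of any of these, or of the macrophage markers, in the list changes was not tested.

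**Figure D5:**
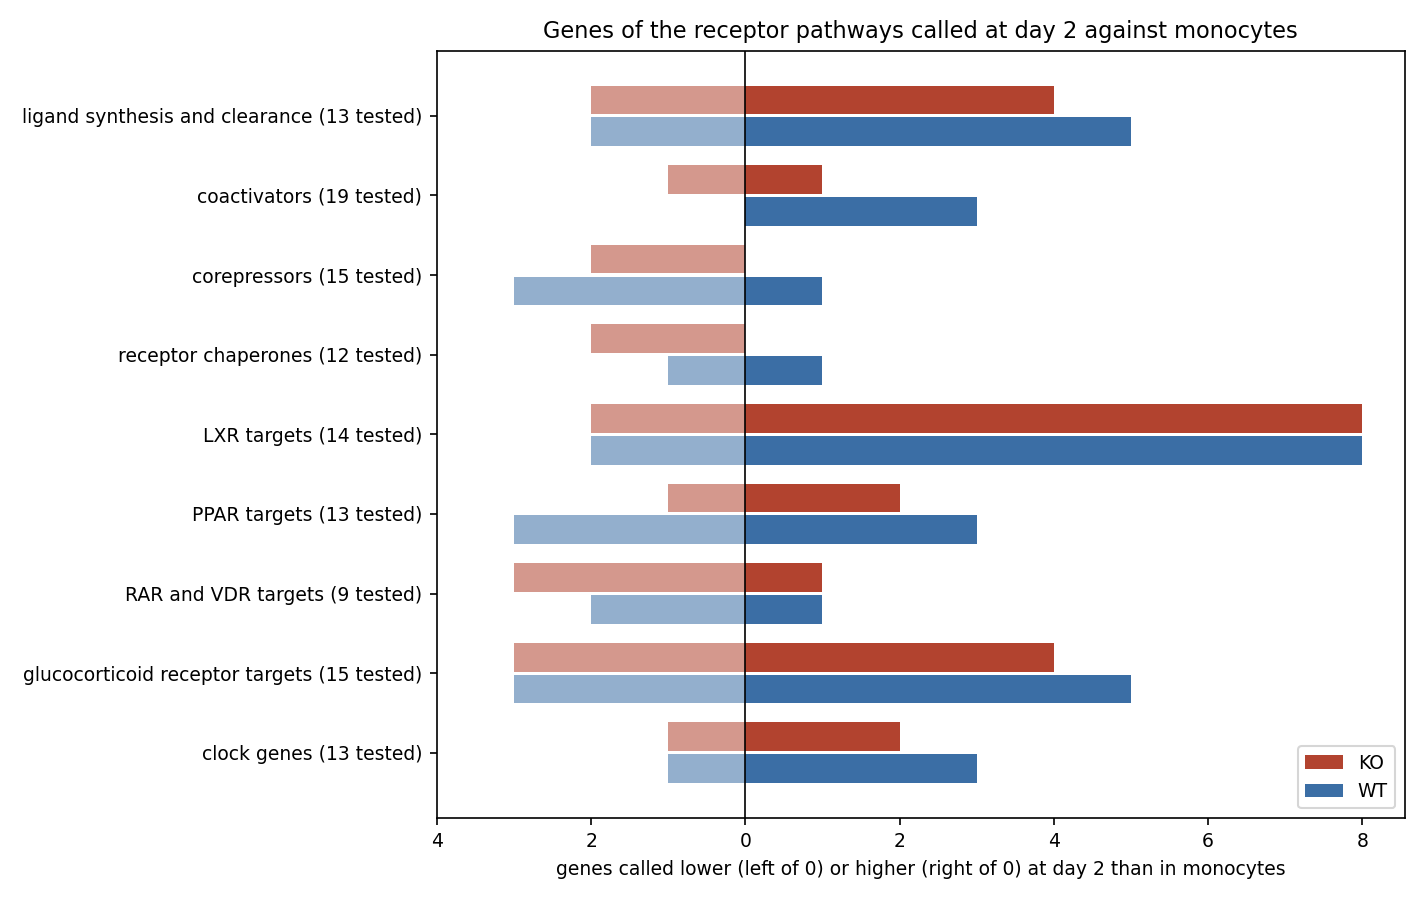
Number of genes called higher and lower at day 2 relative to monocytes in each of the 9 pathway lists, KO above WT. The LXR target list has the most calls, with 8 higher and 2 lower of 14 tested in both genotypes.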

How the data were processed

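Poly(A) RNA of 12 libraries was measured with a stranded mRNA kit, per the labels' protocols. Trimmomatic 0.35, STAR 2.5.1b and build GRCm38 are named in the submitters' processing notes. Deposited were whole-number counts per gene in the layout STAR writes, with no normalization. No annotation release is given in the sources used here. The counts of the reverse strand were used. Of all reads, 5.29% to 8.94% were multimapping, 2.65% to 7.91% unmapped and 1.34% to 1.76% ambiguous. A further 5.24% to 11.2% matched no gene feature on the strand counted, which includes reads of genes on the opposite strand. None of these entered library sizes or tests. Of 47643 gene IDs, 47224 matched a symbol in GENCODE M21 of GRCm38, which also gave exon lengths.

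edgeR 4.0.16 in R 4.3.3 was run with TMM, filterByExpr on the groups, 1 mean per group over all 12 libraries and robust quasi-likelihood dispersion, leaving 6 residual degrees of freedom. The 14034 genes kept were tested in 9 contrasts and 3 interactions, two-sided, with Benjamini-Hochberg adjustment and a threshold of 0.05. The SE is the log2 fold change divided by the square root of the F statistic. On simulated data for WT day 2 over monocytes, with 13474 genes in the test, 56% of genes changed 4-fold and 85% of genes changed 16-fold were recovered, with 8 false calls. The smallest chi-square per degree of freedom between replicates was 34.7, so no library was taken for a repeat of another.

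Replicate numbers were taken to pair KO and WT libraries by experiment, a reading that rests on the dates in the deposited file names. Across genes, the paired libraries' deviations from their group means had correlations of 0.236 (monocytes), 0.194 (day 1) and 0.657 (day 2). The file names of day 1 replicate 2 give 16 hours, and its labels give 1 day. Alternatives were RLE and upper-quartile scaling, no filter, DESeq2 1.42.0, a replicate block, fits on the compared groups, unstranded counts and leaving out libraries. The members, the lists and the alternatives were chosen with earlier results of these data known. Named were members called in any comparison, the NR4A genes and, of each list, up to 4 genes with the smallest adjusted p that passed. Values are printed for part of the list genes, chosen after their values were seen.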

Additional observations from a re-analysis of the deposited data

Results flagged for a closer look

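Reads on the strand opposite to a gene were left out of the tests. For Nr1i3, Nr1i2 and Rarb, which were not tested, they exceeded those in WT monocytes and the limit of 3 reads. Nr1i3 had 4616 such reads in all against 15 on its own strand, with the highest level, 51.3 CPM (629 reads), in WT day 1 replicate 2, where WT monocytes reached 27.9 CPM. Tomm40l overlaps it on the other strand. Nr1i2, with 0 reads on its own strand, had 5 opposite-strand reads (0.273 CPM) in KO day 1 replicate 2. Rarb had 18 opposite-strand reads against 24 on its own strand, with 5 (0.433 CPM) in the library labelled KO day 1 replicate 1 and 0 in WT monocytes, and Top2b overlaps it on the other strand.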

How the results depend on the processing

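The 26 calls of members gave 530 values under the alternatives, of which 470 stayed past the threshold, 60 missed it and 0 changed sign. RLE and upper-quartile scaling and unstranded counts moved no count of called members by over 1.5 times. Without the low-count filter the counts were 1 for KO against WT at day 1 and 1 at day 2, 7 for KO day 1 over monocytes, 5 for KO day 2 over day 1, 11 for WT day 1 and 12 for WT day 2 over monocytes, 8 for WT day 2 over day 1, and 1, Nr4a3, for each interaction. In the same order that fit called 140, 142, 2686, 1235, 3544, 3864 and 2097 of 22400 genes. For the interactions it called 115 genes (day 1 over monocytes), 93 (day 2 over monocytes) and 122 (day 2 over day 1). With the replicate block the counts of members were 7 for KO day 1, 1 for KO day 2 over day 1, 11 for WT day 1, 12 for WT day 2 and 5 for WT day 2 over day 1. DESeq2 gave 6 members for KO day 1 (2994 of 14034 genes), 1 for KO day 2 over day 1 (1057) and 5 for WT day 2 over day 1 (2168). Fits on the compared groups gave 6 members for KO day 1 (1711 of 12421 genes) and 6 for WT day 2 over day 1 (2041 of 12471). With the replicate block they gave 5 members for KO against WT at day 2 (1570 of 12233), 5 for KO day 1 (2003 of 12421) and 11 for WT day 1 (3504 of 12368). Without both libraries that stood apart the counts were 6 for KO day 1, 2 for KO day 2 over day 1 and 5 for WT day 2 over day 1. Leaving out single libraries gave 0 to 1 for KO against WT at day 2, 1 to 6 for KO day 1, 3 to 6 for KO day 2, 0 to 2 for KO day 2 over day 1, 4 to 9 for WT day 1, 4 to 8 for WT day 2, 0 to 5 for WT day 2 over day 1, and 0 to 0 for the rest. The cause of these shifts was not tested.

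Between KO and WT at day 2, uncalled values changed sign on leaving out 1 library for Esr1 (-0.91 without KO day 2 replicate 2, -0.03 without WT day 2 replicate 1, range to 2.12), Rara (-0.39 without KO day 2 replicate 2, range to 1.62) and Vdr (0.32 without WT day 2 replicate 2, range from -1.89). Paired fits on the compared groups were not run for day 2 over the other stages, which share no experiment, or for interactions. With 2 libraries a group and a common coefficient of biological variation of 0.393, differences of low genes such as Thrb rest on few reads.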
